A study of Mus musculus with 122 samples.

Results

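LCL is a chimeric protein that joins the zinc fingers of CTCF to the N and C termini of CTCFL. The libraries described here are the 4 FLAG ChIP-seq samples of the LCL line, out of 122 samples in the series. They were selected by their labels: 2 replicates of LCL D, in which endogenous CTCF was present, and 2 replicates of LCL ID, in which it was degraded. The cells were XY mouse embryonic stem cells of the line E14Tg2a (129/Ola), grown without feeders in serum, LIF, CHIR99021 and PD0325901. Every group of the LCL line carried CTCF-AID, endogenous CTCF fused to an auxin-inducible degron (AID) and eGFP. It also carried the plant F-box protein Tir1 and a Flag-LCL-mRuby 2 transgene at the Tigre locus. The CTCF and CTCFL lines compared below were made from the same parental cells. They carried a FLAG-tagged CTCF or CTCFL transgene at that locus in place of LCL, and their D and ID libraries had the same treatments. In D, doxycycline (Dox, 1 µg/ml) induced the transgene. In ID, the auxin IAA (500 µM) was given with Dox. The labels of the libraries give 24 h of treatment and the treatment protocol gives 2 days. The U cells received neither agent and the I cells IAA alone. The AID tag was on both alleles and Tir1 at the Rosa26 locus, the transgene was homozygous, and single colonies had been picked after its insertion. Nothing in the labels says that the replicates came from separate cultures, so p-values measure the spread between these samples, which may be technical. Endogenous CTCF carries no FLAG tag, so the FLAG antibody targets LCL and not CTCF. The paper reports that endogenous CTCF and LCL interact physically. Whether some D peaks came from LCL held by CTCF, or some peaks arose without bound LCL, was not tested.

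CTCF binds DNA through its zinc fingers and holds cohesin, the ring complex that extrudes chromatin loops, through its N terminus. CTCFL, also called BORIS, is a testis-restricted paralog with very similar zinc fingers and unrelated ends. It occupies many CTCF sites and a set of promoters of its own. A protein with the fingers of one and the ends of the other separates what the DNA-binding domain does from what the ends do, and removal of endogenous CTCF shows where the chimera goes when the sites are vacated.

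The deposited lists held 31672 and 39620 FLAG peaks for replicates 1 and 2 of LCL D and 41363 and 42362 for those of LCL ID, on chromosomes 1 to 19 and X. Each peak has a fold enrichment over the local background and a -log10 q, the lowest of which was 2.0 in every list. The lists hold no reads, so the depth of these libraries is unknown. Peaks of the 4 lists that shared 1 bp or more were joined, which gave 51766 regions. Regions with a peak in all 4 libraries are called common, those in both ID and neither D library gained, and those in both D and neither ID library lost. By this rule 24436 regions (47.2%) were common, 4864 (9.40%) were gained and 1641 (3.17%) were lost. The other 20825 regions, here called partial, differed between replicates, among them 4464 that were missing in D replicate 1 only and 4246 that were in D replicate 2 only. A missing peak means that a list did not reach its threshold there, not that no protein was bound. With 2 libraries against 2, no exact permutation test can go below p = 0.333, so the classes are counts and carry no test.

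**Figure D1:**
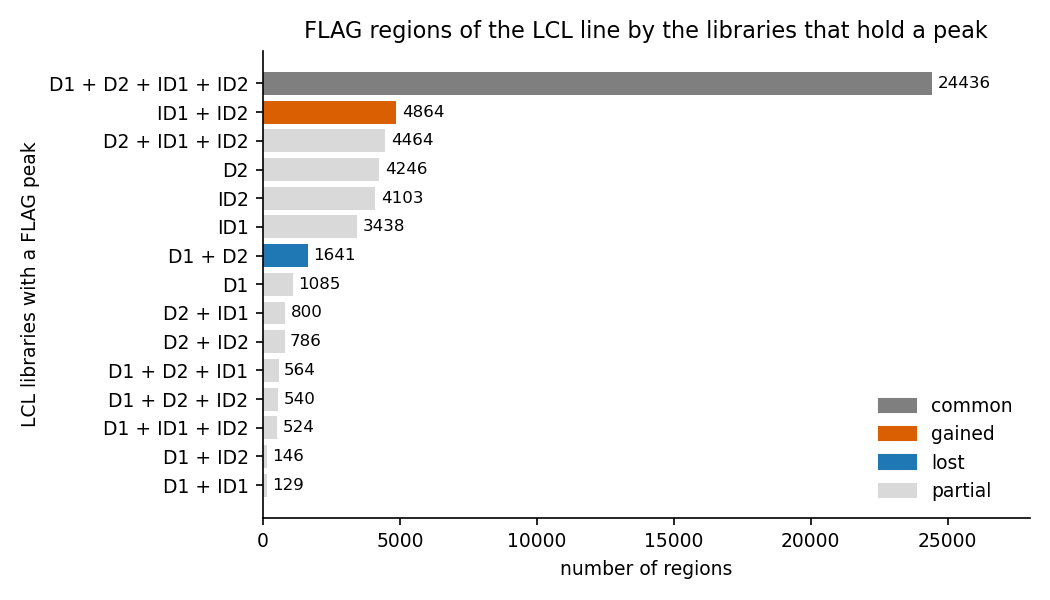
Number of LCL regions (horizontal axis) for each combination of the 4 FLAG libraries that held a peak (vertical axis, D1 and D2 for LCL D, ID1 and ID2 for LCL ID). The 24436 common regions form the longest bar, the 4864 gained regions outnumber the 1641 lost ones, and 4246 regions rested on D replicate 2 alone.

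The gained regions outnumbered the lost ones, but the D lists were also the shorter ones. When every library was reduced to its 31672 peaks of highest -log10 q, the number in D replicate 1, 2657 regions were gained and 2102 lost. Without D replicate 1 the order turned, with 5421 gained and 5957 lost regions, and without D replicate 2 they were 9510 and 2871. Without ID replicate 1 or 2, 9795 or 8996 regions were gained and 2220 or 2196 lost. In the line that carried transgenic CTCF, treated and classed the same way, 198 regions were gained and 3579 lost. In the line with transgenic CTCFL, 1816 were gained and 1321 lost.

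The sequences below are examples from the classes, each with the nearest protein-coding gene. They were picked for a motif match, CG dinucleotides or a CA repeat, and do not stand for the share of regions that hold these. They were read from the RefSeq copy of GRCm38 and are written 5′ to 3′ on the strand given. For the windows centred on a match to the CTCF matrix, capitals mark the matched 14 bases. They are shown because that core motif is what the zinc fingers of CTCF recognise.
Common, Pik3c2g (chr6:139662579-139662658, plus strand): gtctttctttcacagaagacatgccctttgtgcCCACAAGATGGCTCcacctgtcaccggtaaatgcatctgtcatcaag
Gained, Zfx (chrX:94129871-94129950, minus strand): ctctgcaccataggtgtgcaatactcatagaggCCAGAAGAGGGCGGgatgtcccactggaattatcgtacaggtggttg
Gained, Med14 (chrX:12851842-12851921, minus strand): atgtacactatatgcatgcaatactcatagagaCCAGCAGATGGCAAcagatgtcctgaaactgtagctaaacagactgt
Gained and at CTCFL sites only, Rims1 (chr1:22533183-22533262, plus strand): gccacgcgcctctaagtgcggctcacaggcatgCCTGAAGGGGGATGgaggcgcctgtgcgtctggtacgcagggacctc
Lost, Gucy2f (chrX:142200434-142200513, minus strand): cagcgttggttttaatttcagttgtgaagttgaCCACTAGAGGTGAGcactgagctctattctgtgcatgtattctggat
Lost, Cggbp1 (chr16:64899261-64899340, minus strand): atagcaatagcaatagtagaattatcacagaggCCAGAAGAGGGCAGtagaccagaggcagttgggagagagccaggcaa

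The other windows hold no match and are centred on the summit. In the gained promoter window capitals mark CG dinucleotides. In the lost windows they mark hexamers of CA repeats, the repeats that the text returns to below.
Gained, Kif2a (chr13:107021773-107021852, plus strand): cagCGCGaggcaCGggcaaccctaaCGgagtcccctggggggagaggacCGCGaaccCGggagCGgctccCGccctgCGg
Lost, Map4k5 (chr12:69873949-69874028, plus strand): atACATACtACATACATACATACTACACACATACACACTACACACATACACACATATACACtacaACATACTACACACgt
Lost, Kcnu1 (chr8:25879259-25879338, plus strand): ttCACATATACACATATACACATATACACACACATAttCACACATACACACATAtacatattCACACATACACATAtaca
Lost, Sox9 (chr11:112852260-112852339, plus strand): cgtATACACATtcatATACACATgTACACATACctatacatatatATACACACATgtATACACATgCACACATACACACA

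The common Pik3c2g window has the motif, with fold enrichments of 13.8 and 12.6 in D and 12.6 and 11.7 in ID. The Zfx and Med14 windows, upstream of the gene of an X-linked zinc finger factor and of a Mediator subunit, share the 16-base run tgcaatactcatagag beside their motifs. Of the 200 bp at these summits 70.5% (Zfx) and 49.0% (Med14) were repeat-masked. Whether the run belongs to a repeat was not tested. Zfx had enrichments of 10.6 and 7.61 in ID and Med14 of 8.93 and 8.70, with no peak in D. The Gucy2f region, upstream of a retinal guanylate cyclase gene, had enrichments of 7.08 and 10.2 in D and no peak in ID. The Map4k5 window lies in a peak with enrichments of 6.92 and 8.29 in D and no peak in ID, and is a run of CA and TA steps.

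Most regions bound in D were also bound in ID: of 27181 regions with a peak in both D libraries, 24436 had one in both ID libraries. In the common regions the median fold enrichment was 4.64 and 5.24 in the D libraries and 5.76 and 5.60 in the ID libraries. Both ID medians were above both D medians. Gained regions were weaker, with medians of 3.76 and 3.77 in ID, and lost regions had medians of 3.99 and 4.24 in D. Their median -log10 q was 5.73 and 6.0 (gained) and 4.98 and 6.25 (lost), against 10.5 to 22.7 in the common regions. Gained and lost regions were also narrower, with median widths of 431 and 391 bp beside 1083 bp. Over common regions, log2 enrichment correlated across regions with r = 0.78 between the D replicates, 0.87 between the ID replicates and 0.68 to 0.72 between D and ID. Regions are not independent replicates, so these values describe the lists and have no p.

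Promoters separated the classes. A region is called a promoter region where its middle lies within 3 kb of an annotated gene start (GENCODE vM21). Of the common regions 37.3% were at promoters (exact binomial 95% interval 36.7 to 37.9%, counting error only), of the gained regions 44.4% (43 to 45.9%) and of the lost regions 21.9% (20 to 24.0%). Closer to the start the gap was wider: 27.3% of gained regions had their middle within 500 bp of a start, against 16.7% of common and 3.29% of lost regions. Lost regions were instead more often intronic (36.1%, against 24.1% of gained and 28.7% of common regions) or intergenic (38.6%, against 25.8% and 26.7%). The order gained, common, lost held with peaks of a -log10 q of at least 5 (41.7%, 38.1% and 22.5%) and with equal numbers of peaks (40.9%, 37.6% and 23.5%). It also held without each library in turn. The gained share was then between 39.6% and 44.6%, the common share between 36.8% and 37.5% and the lost share between 22.6% and 23.9%. Of these, gained and common were closest without D replicate 2 (39.6% and 37.5%). Without replicate 2 of both conditions they were 38.5% and 37.1%. Across whole lists, promoters held 36% and 34.4% of the peaks of the D replicates and 37.7% and 38.5% of those of the ID replicates. The 2 ID shares were both higher, 38.1% ± 0.594 against 35.2% ± 1.15 (SD, n = 2), and the exact permutation test gave its smallest possible p of 0.333.

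**Figure D2:**
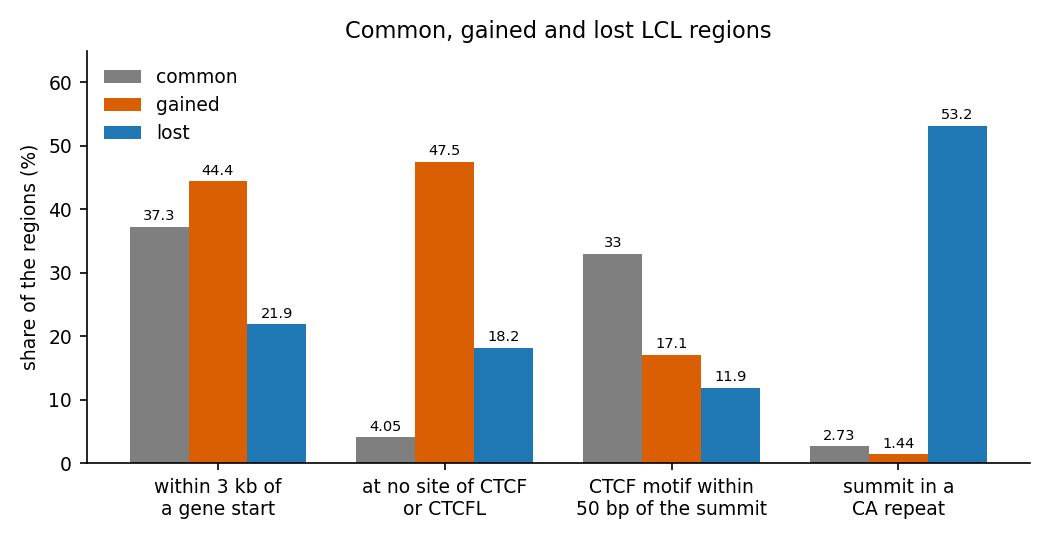
Share of the common, gained and lost LCL regions (vertical axis, %) that lie within 3 kb of a gene start, at no site of CTCF or CTCFL, that hold a CTCF motif within 50 bp of the summit, or whose summit is in a CA repeat. Gained regions have the highest promoter share (44.4%) and the highest share at neither parent's sites (47.5%), and lost regions the highest share of CA repeats (53.2%).

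The promoter share of LCL peaks was above that of CTCF, while it lay below that of CTCFL in D and overlapped it in ID. In D the shares of the 2 replicates were 36% and 34.4% for LCL and 42.8% and 43.2% for CTCFL, and in ID they were 37.7% and 38.5% for LCL and 36.4% and 37.8% for CTCFL. Over the 4 libraries of each line it was 36.6% ± 1.82 for LCL, 28.4% ± 1.27 for transgenic CTCF and 40.1% ± 3.45 for transgenic CTCFL (SD, n = 4). All 4 LCL libraries (34.4 to 38.5%) were above all 4 CTCF libraries (27.5 to 30.3%), a difference of 8.19 percentage points. The exact two-sided permutation test gave p = 0.0286, the smallest it can give with 4 against 4, and 0.0572 after Benjamini-Hochberg adjustment over the 2 comparisons of lines. The LCL and CTCFL shares overlapped, with a difference of -3.42 points (exact permutation p = 0.171, adjusted p = 0.171). The lines came from picked colonies, so transgene and clone cannot be told apart.

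**Figure D3:**
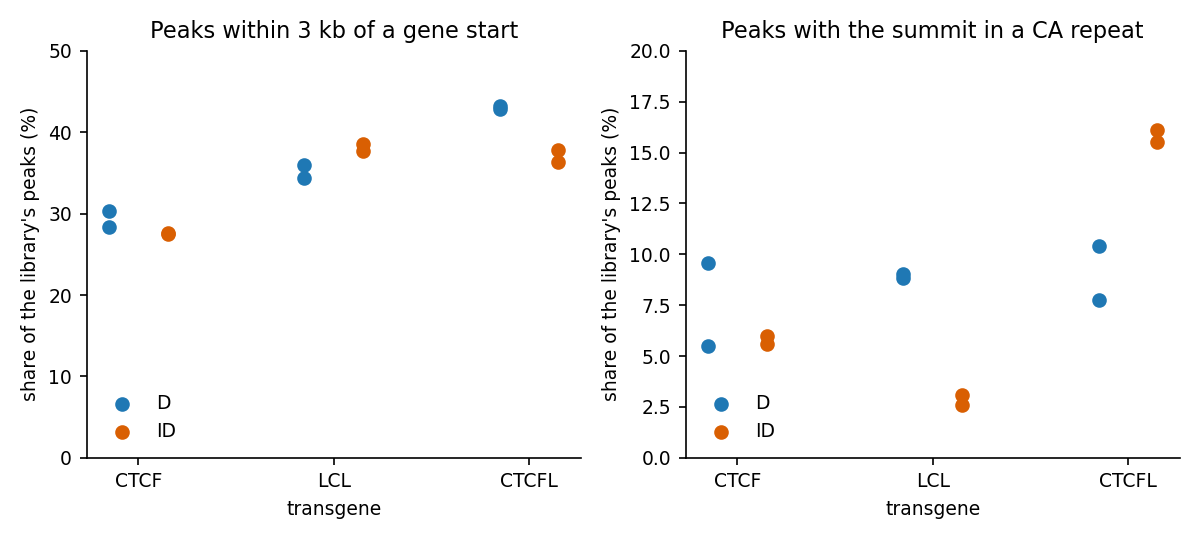
Share of each FLAG library's peaks (vertical axes, %) within 3 kb of a gene start (left) and with the summit in a CA repeat (right), 1 point per library, for the CTCF, LCL and CTCFL lines in D and ID. LCL promoter shares (34.4 to 38.5%) lie above those of CTCF, and the CA-repeat share of LCL falls from 8.82 and 9.01% in D to 3.11 and 2.58% in ID while that of CTCFL is highest in ID.

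Among gained regions within 3 kb of a protein-coding start, those with the highest enrichment belonged to genes of unrelated roles. Rcbtb1 (chr14:59200789-59201592, 18 bp from the start) had enrichments of 6.26 and 8.42 in ID and lay at a CTCFL site. Kif2a, which encodes a microtubule-depolymerising kinesin, had 6.57 and 7.53 at neither parent's sites. Lrba had 6.22 and 7.51 and Hivep1, a zinc finger transcription factor, 7.59 and 5.50, both at CTCFL sites only. Slc25a12, the mitochondrial aspartate-glutamate carrier, had 6.82 and 6.67 at a site of both parents. Armcx4, Mid1, Fgd4, Gm13271 and Asah1 completed the first 10, with single values from 5.01 (Armcx4) to 8.50 (Armcx4). None of these 10 had a peak in a D library, and 9 of them lacked the CTCF motif at the summit, Armcx4 being the exception.

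Of the 10 lost regions of highest enrichment within 3 kb of a protein-coding start, 6 had their summit in a CA repeat: Map4k5, D630023F18Rik, 9130230L23Rik, Usp50, Cd300ld and Olfr464. The other 4 were Rgs20, a regulator of G-protein signalling, with enrichments of 4.52 and 7.95 in D, Cox7b2 with 6.12 and 6.09, Dhx57 with 5.16 and 6.36, and Gabpb1, a subunit of the GABP transcription factor, with 4.26 and 6.95. Rgs20 and Gabpb1 held the motif. Farther from protein-coding starts, the lost regions without a CA repeat that had the highest enrichment were those near Gucy2f, Ncoa7 (7.49 and 9.08) and Cggbp1 (7.94 and 8.26), which were chosen after their values had been seen.

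The sites of the parent proteins gave a further division. Places where both replicates of transgenic CTCF or of transgenic CTCFL listed a peak, in D or in ID, are called sites of that parent. CTCF D sites overlapped 91.4% of the common regions, 33% of the gained and 52.7% of the lost regions. CTCFL D sites overlapped 59.0%, 21.2% and 28.3% of them. No site of either parent overlapped 47.5% of the gained regions, 43.9% of the partial, 18.2% of the lost and 4.05% of the common ones. When a peak in either replicate of a parent sufficed, these shares fell to 19.6%, 20.1%, 3.96% and 0.405%. Most gained regions had thus been reached by a parent in at least 1 library. Read the other way, LCL regions at sites of both parents were 81.5% common and 2.42% gained (of 19401), and those at CTCF sites alone 44.6% common and 8.41% gained (of 14890). Regions at CTCFL sites alone were 20.9% common and 17.6% gained (of 4739), and 59.9% of them were at promoters, beside 25% at CTCF sites alone. The 12736 regions at neither parent's sites were 7.77% common, 18.1% gained and 71.8% partial. The same FLAG antibody and treatments were used for all 3 lines, and the overlaps share these libraries, so they are descriptions and carry no test.

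The motif was rarer in gained, lost and partial regions than in common ones. A 14-position matrix re-estimated on the common regions matched within 50 bp of the summit in 33% of common, 17.1% of gained, 11.9% of lost and 23.7% of all regions. The common regions were thus scored with a matrix estimated on them, which may favour them in this comparison. The score required was that reached by 5.00% of windows 1000 bp away. Partial regions, with median enrichments of 3.77 to 3.90 in the 4 libraries, held the motif in 15.4%. The order common, gained, lost was the same within 25 bp (19.4%, 12.6% and 6.58%) and within 100 bp (51.3%, 23.7% and 20.5%). Without the CA-repeat regions described below, lost regions held the motif more often than gained ones, in 24.7% and 17.2% within 50 bp. These shares were 13.7% and 12.7% within 25 bp, and 42.6% and 23.8% within 100 bp. Gained regions at neither parent's sites held it in 11%, beside 5.95% of their windows 1000 bp away, and gained promoter regions in 14.5%. Gained regions at sites of both parents held it in 30.8%. The third base of the matched core differed with the parent: it was A in 88.4% of the 3741 matches at CTCF sites alone, in 76.0% of the 6613 at sites of both and in 52.3% of the 610 at CTCFL sites alone, as in the Rims1 window above, where it is T. Regions in CA repeats were left out of these shares by parent. The 200 bp at the summit had a median GC content of 53% in gained, 51% in common and 40% in lost regions.

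Lost regions stood apart in their sequence. Repeat-masked bases made up a median of 77.5% of the 200 bp at the summit in lost regions, against 9.50% in common and 10.5% in gained ones. A region is called a CA-repeat region where at least 25% of these 200 bp are covered by rotations of ACACAT or ACACAC on either strand, a rule set after the lost sequences had been read. By it, 873 of the 1641 lost regions (53.2%) were CA-repeat regions, against 668 of the common (2.73%) and 70 of the gained regions (1.44%), and 8.46% of all regions. The motif was found in 5 of the 873 (0.573%) and in 24.7% of the 768 other lost regions. Among regions without CA repeats it was found in 33.6% of common and 17.2% of gained ones. Without CA-repeat regions 768 lost and 4794 gained regions were left. Their promoter shares were 26.2% and 44.8%, and the share at CTCF D sites was 76.7% and 32.9%. The median GC content of lost regions without CA repeats was 43.5%.

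The CA-repeat share of whole LCL libraries differed between D and ID. It was 8.82% and 9.01% of the peaks in D and 3.11% and 2.58% in ID. In the CTCFL line it went the other way, from 10.4% and 7.73% in D to 15.5% and 16.1% in ID, and 70.0% of the lost CA-repeat regions of LCL overlapped a CTCFL ID site, beside 17.6% of the other lost regions. In the CTCF line it was 9.56% and 5.48% in D and 5.61% and 5.98% in ID. Whether these repeats were bound by the transgenic protein was not tested.

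Enrichment within the common regions was compared between D and ID. The log2 fold enrichment of each library was centred on its median and tested with limma. The median log2 ID minus D over regions was 0.18 as deposited and -0.03 after centring. Of 24436 regions 262 were called at an adjusted p under 0.05 (1.07%), 77 higher in ID (0.315%) and 185 lower (0.757%). At an unadjusted p under 0.05 there were 5072, and the same fit on -log10 q in place of enrichment called 4322, so the number of calls does not measure how many regions changed. These calls rest on the centring and on both D libraries: as deposited, without centring, 1 region was called (higher in ID), and without D replicate 1 or D replicate 2 there were 0 calls (4580 and 5479 regions at an unadjusted p under 0.05), while 378 and 445 were called without ID replicate 1 or 2. Of the 262, 28 changed by more than 1 on the log2 scale.

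The region with the largest rise lay 19342 bp upstream of Gm8024, with enrichments of 3.99 and 3.71 in D and 12.8 and 11.8 in ID (log2 difference 1.47, SE 0.13, limma adjusted p = 0.0121). D and ID did not overlap. This region lay within 3 kb of the start of another annotated gene. At Mbd1, the gene of a methyl-CpG-binding protein, the promoter region went from 3.99 and 5.03 to 10.4 and 11.8 (1.10, SE 0.13, limma adjusted p = 0.0301). At the promoter of Mtdh it went from 3.27 and 3.54 to 8.20 and 7.17 (0.97, SE 0.14, limma adjusted p = 0.0308). Regions near Plin2, Llph, Errfi1, Frmd6, Gm5678, Acot5 and Rad51ap2 rose by 0.95 to 1.11.

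The region with the largest fall was 47175 bp upstream of Cntln, from 7.18 and 8.37 in D to 3.76 and 3.02 in ID (log2 difference -1.41, SE 0.15, limma adjusted p = 0.0232). An intronic region nearest to Mrc1, the macrophage mannose receptor gene, went from 9.05 and 10.9 to 5.01 and 4.27 (-1.30, SE 0.12, limma adjusted p = 0.0121). A region 25646 bp upstream of Col19a1 was among the strongest in D, at 16.8 and 14.6, and stood at 7.26 and 9.30 in ID (-1.13, SE 0.17, limma adjusted p = 0.0315). This region held no motif, had a GC content of 32.5% at the summit and lay within 3 kb of the start of another annotated gene. Whether its peaks reflect bound LCL was not tested. Regions near Sema3d, 1700069L16Rik, Zfhx3, Frmd4a, Fgf20, Prss52 and Adamts8 fell by between 1.11 and 1.30. Of the first 10 that fell, 4 were CA-repeat regions (1700069L16Rik, Zfhx3, Frmd4a and Prss52), as were 37 of the 185 and 0 of the 77 that rose, beside 2.73% of all regions tested. Across the 668 common CA-repeat regions the median log2 difference was -0.27 (quartiles -0.46 and -0.08), and in the other 23768 it was -0.02 (-0.18 and 0.14). Regions at CTCF sites alone, at sites of both parents, at CTCFL sites alone and at neither had medians of -0.03, -0.03, 0.04 and -0.05.

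**Figure D4:**
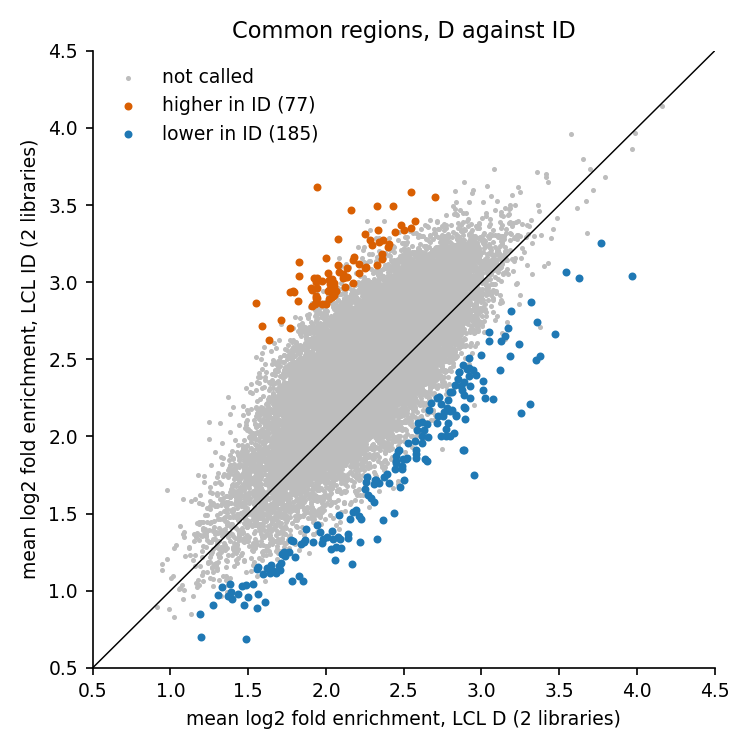
Mean log2 fold enrichment of the 2 LCL D libraries (horizontal axis) against that of the 2 LCL ID libraries (vertical axis) for the 24436 common regions, as deposited and with the line of equality. The 77 regions called higher and the 185 called lower in ID form the edges of the cloud, whose body lies above the line by a median of 0.18.

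None of the 5 strongest common regions was called. The highest, whose nearest protein-coding gene is Rpusd4, had enrichments of 18.0, 17.8, 18.4 and 17.0 in D replicates 1 and 2 and ID replicates 1 and 2. It lay 30171 bp downstream of the Rpusd4 start and held no motif, and 100% of the 200 bp at its summit was repeat-masked. Around Pls3 they were 10.9, 13, 16.3 and 14.8 (log2 difference 0.18, SE 0.12, limma adjusted p = 0.431). Over the 5 regions the limma adjusted p ran from 0.219 to 0.469.

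Against transgenic CTCF, LCL changed differently with IAA at 16 of the 20062 regions with a peak in all 8 libraries (limma interaction, 0.0798%). The change was higher for LCL at 15 of them (0.0748%) and lower at 1 (0.00498%). At the promoter of Zfp619, a zinc finger gene, LCL had enrichments of 6.57 and 6.46 in D and 9.32 and 9.05 in ID, while CTCF had 9.82 and 6.21 and then 3.99 and 3.80 (difference of the centred log2 changes 1.74, SE 0.24, limma adjusted p = 0.0227). Gzf1, Tor1aip1, Ldah and Zfp788 promoters showed differences of 1.51 to 1.66, each with an LCL change of 0.21 to 0.54 and a CTCF change of -0.97 to -1.37. The median of this difference over regions was -0.25 as deposited and -0.01 after centring. The count was 0 without any 1 of the LCL libraries, without CTCF ID replicate 2, as deposited without centring and with a replicate block, 4 without CTCF D replicate 2, and 289 and 280 without CTCF D replicate 1 or ID replicate 1.

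Against transgenic CTCFL, 127 of 13752 regions differed in their change (0.924%), 83 with the higher change for LCL (0.604%) and 44 with the lower (0.320%). At Mtdh LCL rose as above and CTCFL had enrichments of 7.39 and 8.60 in D and 6.54 and 5.51 in ID (1.66, SE 0.20, limma adjusted p = 0.00211). The promoter of Pcolce2, a procollagen protease enhancer, had LCL enrichments of 2.94 and 3.09 in D and 7.14 and 6.05 in ID beside 5.42, 5.39, 4.05 and 4.20 for CTCFL (1.59, SE 0.23, limma adjusted p = 0.00426). At the promoter of Braf, a kinase of the MAPK pathway, the LCL values were 3.32, 3.83, 6.11 and 6.95 and those of CTCFL 6.68, 4.23, 4.17 and 3.42 (1.44, SE 0.27, limma adjusted p = 0.0245). The region near 1700029F12Rik went the other way, from 6.12 and 8.21 to 4.01 and 4.11 for LCL and from 5.20 and 4.67 to 9.06 and 7.60 for CTCFL (-1.48, SE 0.21, limma adjusted p = 0.00426). Leaving out any 1 of the 8 libraries gave between 7 and 86 calls, with 86 without CTCFL ID replicate 2 and at most 39 without each of the others, and 40 were called as deposited without centring, 16 higher and 24 lower.

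Cohesin was read from RAD21 peaks of the same line, whose lists differed widely in length: 5292 and 14913 peaks in the D replicates and 4847 and 163 in the ID replicates. RAD21 of D replicate 2 overlapped 32.8% of common, 6.62% of gained and 11.7% of lost regions, and 6.94% of partial ones. With D replicate 1 the shares of common, gained and lost regions were 8.23%, 0.514% and 30.8%. With ID replicate 1 they were 7.01%, 0.452% and 19.8%. The high shares of the lost regions came with CA repeats, which held 56.1% and 51.6% of the RAD21 peaks of D replicate 1 and ID replicate 1, against 5.83% in D replicate 2. Without CA-repeat regions, lost regions were overlapped in 2.99%, 11.1% and 1.04% (D replicate 1, D replicate 2 and ID replicate 1), gained regions in 0.501%, 6.59% and 0.375% and common regions in 7.73%, 32.8% and 6.60%. In each of these 3 libraries the common regions were then highest and the gained ones lowest. With a RAD21 peak within 1 kb counted, before CA repeats were left out, D replicate 2 had 34.8%, 15.5% and 13.6% at common, gained and lost regions. ID replicate 2 lists too few peaks to be read, at most 0.229% of a class. RAD21 was not compared between D and ID, since the numbers of peaks differed widely within each.

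RNA-seq of the same line gave the state of the cells and the RNA of the genes at these regions. The 8 libraries (2 each of U, I, D and ID) held between 20497827 and 49716771 reads, recovered from the deposited values. Bulk RNA cannot tell fewer cells of a type from less RNA per cell. The 6 ES-cell markers Pou5f1, Sox2, Nanog, Klf4, Esrrb and Zfp42 summed to normalised values between 131109 and 176033. Esrrb, a pluripotency factor, stood at 33984 and 36515 in D and 14672 and 17242 in ID (log2 change -1.15, SE 0.10, limma adjusted p = 8.46e-09). The other ES-cell markers changed less and in both directions. The log2 change was 0.17 for Pou5f1, 0.15 for Nanog, -0.22 for Zfp42, -0.30 for Sox2 and -0.56 for Klf4. The summed markers of fibroblasts (5 genes) were 233 to 740, of neural cells (4) 162 to 441, of mesendoderm (6) 545 to 850 and of trophoblast (3) 33.1 to 249. Fibroblast markers went from 704 and 740 in D to 233 and 244 in ID and trophoblast markers from 59.6 and 64.5 to 179 and 249. Their part in the RNA results was not tested. Ctcf RNA did not pass the test between D (6705 and 7102) and ID (7194 and 6964). The zinc fingers of the transgene share the sequence of Ctcf, so this value may hold transgene RNA beside that of the endogenous gene. The degron acts on the protein, which was not analysed here. Ctcfl, whose sequence the ends of the transgene share, had values of 36.5 and 27.2 in U, 33.8 and 23.5 in I, 384 and 416 in D and 1120 and 1225 in ID. It was higher in ID than in D by 1.55 on the log2 scale (SE 0.22, limma adjusted p = 1.12e-05). RNA of the transgene and of the endogenous gene cannot be told apart in this value, and its part in the FLAG results was not tested.

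More genes were called between ID and D than between D and U, which share the D libraries. Of 15274 genes tested in ID against D, 1683 were called (11%), 651 higher (4.26%) and 1032 lower (6.76%), at a limma adjusted p under 0.01 and a log2 change over 1. In D against U 291 were called (1.91%), 153 higher (1.00%) and 138 lower (0.903%), and the count was 153 without U replicate 1 and 161 without D replicate 2. In ID against I 1296 were called (8.49%), 617 higher (4.04%) and 679 lower (4.45%). Genes with a gained region at a start were called in ID against D in 200 of 1743 cases (11.5%), 66 higher and 134 lower, with a median log2 change of -0.06. Genes with a lost region were called in 31 of 211 (14.7%), with a median of -0.09, and genes with a common region in 739 of 5889 (12.5%), with a median of -0.01. Genes with no region were called in 551 of 5453 (10.1%), with a median of 0.04. Apart from that of the lost regions, these shares lie near that of all genes tested. With a lost CA-repeat region 18 of 89 genes were called (20.2%), and with a lost region without CA repeat 13 of 123 (10.6%). The difference between these 2 shares was not tested. In ID against I, genes with a common region were called in 591 cases (10%), 363 higher and 228 lower, and genes with no region in 419 (7.68%), 141 higher and 278 lower.

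Of the genes with a gained region at the start, those with the largest changes are named here, selected after their values were seen. Itpr1, the inositol trisphosphate receptor of the endoplasmic reticulum, had values of 1942 and 1691 in U, 250 and 290 in I, 2321 and 2419 in D and 111 and 164 in ID (log2 change ID minus D -4.12, limma adjusted p = 1.14e-13). Its values were high in both groups with endogenous CTCF and low in both without. Grid1, a glutamate receptor subunit, went from 139 and 145 in D to 7.65 and 2.82 in ID (-4.64, limma adjusted p = 1.90e-07), and stood at 6.41 and 3.24 in I. Dpp6 had 283 and 261 in D, 12.9 and 31.1 in ID and 11.1 and 26.7 in I (-3.69, limma adjusted p = 1.41e-07). 9330182L06Rik, Vstm2l and Fras1 also fell, by between 3.97 and 5.65, from D values of 27.7 to 144.

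In the other direction, Atoh1, a proneural transcription factor, rose from 34.3 and 36.8 in D to 439 and 438 in ID (log2 change 3.59, limma adjusted p = 4.97e-10) and stood at 211 and 212 in I. S100a13, a calcium-binding protein, was at 774 and 661 in D, 1044 and 1217 in I and 4907 and 4144 in ID (2.66, limma adjusted p = 2.55e-12), so that ID was above every other library. Lbx1, Ehd2 and Ocel1 rose by between 2.62 and 3.08. Among genes with a lost region, Plk2, a polo-like kinase, rose from 1125 and 1097 to 5153 and 4928 (2.18, SE 0.09, limma adjusted p = 9.49e-13) and Igfbp7, an IGF-binding protein, fell from 153 and 208 to 10 and 41 (-3.06, SE 0.44, limma adjusted p = 1.10e-05). Syngr4, Crygc and Rcan2 also fell, and Dlx3, Cd300ld and Gm13012 rose.

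Of 9 genes listed as CTCFL targets or loci of the chimeras, all had a common LCL region at a start and none a gained or lost one. Across all annotated protein-coding genes 31.1% had a common, 8.94% a gained and 1.17% a lost region. The list holds loci picked in earlier work on these samples, so it is not independent of them. At Ctcfl itself the enrichment was 4.93 and 5.80 in D and 6.33 and 6.16 in ID (log2 difference 0.02, SE 0.12, limma adjusted p = 0.942). At Prss50, a testis protease, it was 5.57, 6.34, 7.54 and 7.62 (0.15, SE 0.11, limma adjusted p = 0.486). Stra8, which starts meiosis, had 5.37, 5.09, 4.63 and 4.91, and Gal3st1 5.00, 5.01, 4.82 and 6.81. Over the common regions of all 9 genes, which include Rapgef1, Zbtb45, Stat2 and Mrps33, the lowest limma adjusted p was 0.0759, at Clasp1 (4.91 and 6.83 in D, 4.30 and 4.36 in ID). In RNA, Prss50 rose on induction from 20.5 and 17.9 in U to 99.9 and 107 in D (log2 change 2.37, SE 0.44, limma adjusted p = 6.94e-04), and was at 41.2 and 89.0 in ID.

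Some genes of the other lists had a gained region at the start, none of which had a peak in D. Stag3, the meiotic cohesin subunit, had a region 90 bp from a start with enrichments of 3.95 and 3.79 in ID. Cdca5, which encodes the cohesin protector sororin, had 2.86 and 2.84. Lin28a, an RNA-binding protein of pluripotent cells, had 2.51 and 2.32, and Igf2r, an imprinted receptor gene, 4.76 and 3.77. Tdrd1, a Tudor protein of the piRNA pathway, had 4.15 and 6.23, and Piwil1, a PIWI protein, 2.23 and 2.12. A region near Gnas and Nespas had 3.36 and 3.43, Hoxb8 had 2.73 and 2.78 and Ftx 4.01 and 4.02. In all, gained regions lay at 1 of 39 Hox genes, 2 of 19 cohesin genes, 1 of 22 pluripotency genes, 3 of 36 imprinted genes, 3 of 33 germline genes and 1 of 8 annotated genes of the X inactivation centre, and lost regions at none of them. Over all protein-coding genes the shares were 8.94% and 1.17%, and those of the cohesin (10.5%), germline (9.09%) and imprinted genes (8.33%) lie near the first. The fibroblast markers Thy1 (4.82 and 4.91) and Col1a1 (2.19 and 2.06) also had gained regions.

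Germline genes fell in RNA more often than they rose, both with and without an LCL region at the start. Of 27 tested, 15 fell and 0 rose in ID against D (55.6%, beside 6.76% lower of all genes tested), and 18 fell and 0 rose in ID against I (66.7%, beside 4.45%). The list was chosen with earlier results of these data known, so these shares are not independent of them and carry no test. Their median log2 change was -1.03 and -1.47, beside 0.01 and 0.00 over all genes tested. In D against U 1 rose and 0 fell. Piwil2, a PIWI protein that silences transposons, had values of 609 and 643 in U, 712 and 701 in I, 888 and 1010 in D and 130 and 134 in ID (log2 change ID minus D -2.83). ID was below every other library. Dazl, an RNA-binding protein of germ cells, had 1445 and 1550, 1618 and 1584, 1920 and 1726 and then 502 and 408 (-2.01). Stag3 had 3132 and 2948 in U, 2231 and 2143 in I, 2305 and 2435 in D and 811 and 681 in ID (-1.67), and Tdrd1 114 and 90.8, 241 and 222, 180 and 217 and then 50.6 and 33.9 (-2.23). Mael, Mov10l1, Taf7l and Ddx4 fell by 2.51, 2.42, 2.66 and 1.59. A region in both ID libraries lay at 10 of the 27 genes, of which 5 fell in ID against D (median -0.97), and 10 of the 17 without one fell (median -1.03).

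**Figure D5:**
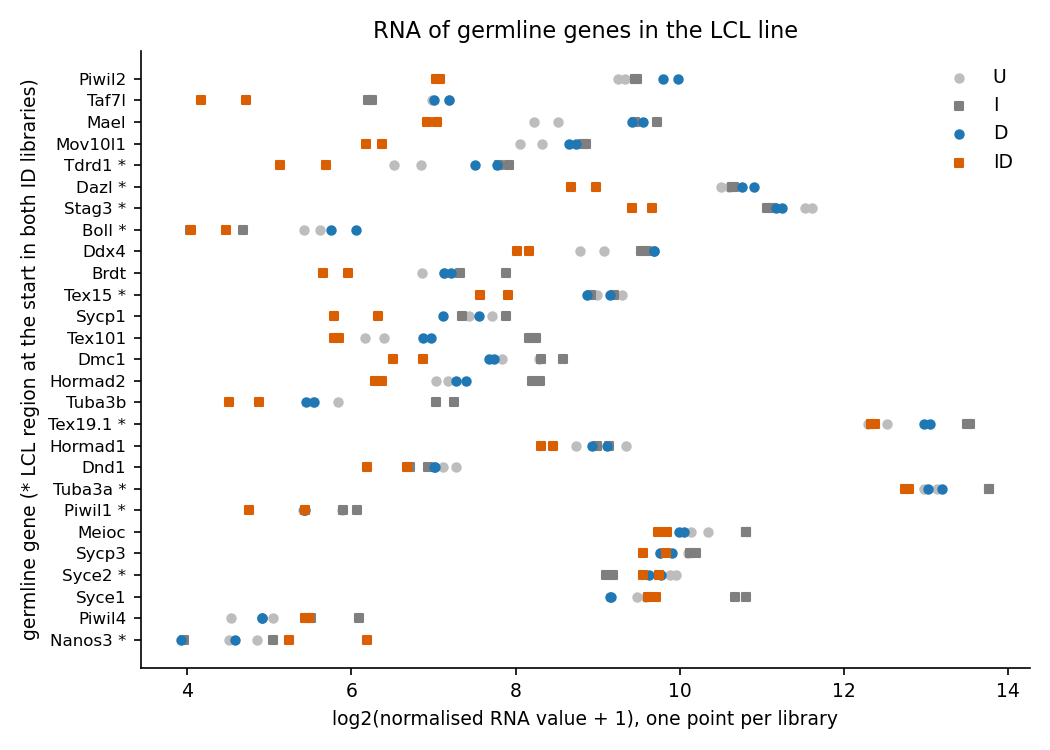
RNA of the 27 germline genes tested (vertical axis, ordered by the ID minus D change) as log2 of the normalised value plus 1 (horizontal axis), 1 point per library for U, I, D and ID of the LCL line, with a star where both ID libraries held a LCL region at the start. The ID points of Piwil2, Taf7l, Mael, Mov10l1, Tdrd1, Dazl and Stag3 lie below those of U, I and D.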

How the data were processed

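ChIP-seq and RNA-seq files of the LCL line were used as deposited. Per the study's methods, the authors used Bowtie2 with GRCm38/mm10 for ChIP reads, discarded multiply mapped and duplicate reads, and ran MACS on each replicate. RNA reads were aligned with STAR. The submitters' processing notes also name Trim Galore 0.4.4 and SAMtools 1.3. The deposited lists give a fold enrichment ratio over local background and a -log10 q. The control library is not given in the sources used here. The deposited summit is an offset within the peak. RAD21 peaks are broad peaks. RNA values are deposited as a signal, gene counts divided by the authors by 1 size factor per library. Whole reads were recovered for 100% of values of the 8 LCL columns (tolerance 0.1). The 30 other columns were not used.

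The members and gene lists were chosen with earlier results of these data known. Genes named are the 10 gained and the 10 lost regions of highest mean enrichment among those whose middle lies within 3 kb of a protein-coding start, the 10 largest called differences each way, the 5 strongest common regions, and list genes with a gained or lost region. Genes with such a region and an RNA call are named only for the largest changes, chosen after their values were seen. Fits used limma 3.58.1 (R 4.3.3) with a trend, on median-centred log2 enrichment and on log2(value + 1) for genes with a mean of at least 10. RNA alternatives included edgeR 4.0.16 and DESeq2 1.42.0. Permutation tests were exact. Replicate numbers were not treated as pairs. Scripts were tested on simulated data. Alternatives that leave out CA-repeat regions and the promoter shares of the classes under other thresholds were added after seeing the data. Some results are not reported here.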

Additional observations from a re-analysis of the deposited data

Results flagged for a closer look

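Among the groups of 4 libraries of each line, checked for peak number, promoter share and CA-repeat share, CTCF D replicate 1 stood away from the other 3 CTCF libraries with a CA-repeat share of 9.56%. Chance marks about 1 in 20 such groups, and 10 were checked.

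The effect of IAA differed between LCL and CTCF at 16 regions and between LCL and CTCFL at 127 regions by the interaction contrast of limma. Both counts changed by more than 1.5 times when single libraries were left out, as given with the values above.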

How the results depend on the processing

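For the classes, a -log10 q of at least 5 left 967 lost regions, equal numbers of peaks 2657 gained, the study's rule of absence (not in both replicates) 9957 gained and 2773 lost, an overlap of 66% of both sites 16620 and 9501, and removal of CA repeats 768 lost. Leaving out replicates gave 5421 to 14949 gained and 2196 to 7536 lost. For the enrichment fit, 1 region was called as deposited, 2 after quantile normalization, 4322 on -log10 q (2152 higher and 2170 lower), 28 with a log2 difference over 1, 459 with a -log10 q of at least 5 and 0 over regions with a peak in at least 3 libraries (4229 at an unadjusted p under 0.05). Leaving out single libraries gave 0 to 445. The LCL and CTCF interaction gave 0 as deposited (1277 at an unadjusted p under 0.05) and 0 to 289 without single libraries, and that with CTCFL 40 and 7 to 86. The cause of these moves was not tested. The promoter share of LCL exceeded that of CTCF by 7.57 to 8.94 points without single libraries, where the exact permutation test of 4 against 3 cannot go below p = 0.0571.

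Replicate numbers did not pair the samples: replicate differences in D and ID correlated by 0.022 over common regions. With the replicate block 1011 regions were called in the enrichment fit, 0 and 134 in the interactions with CTCF (1530 at an unadjusted p under 0.05) and CTCFL, and 1724, 316 and 1323 genes in the RNA contrasts ID minus D, D minus U and ID minus I. The calls in D minus U ran from 153 to 360 without single libraries. Every other total of RNA calls stayed within 1.5 times the one given, while without a filter 90 genes rose in D minus U in place of 153. Of 63 alternative shares of classes, 36 moved beyond their counting interval. Over the alternatives for single regions and genes named above, no value was reversed, and 101 of 222 region values and 23 of 383 gene values lost their call. The unknown depth of the ChIP libraries limits every statement on a missing peak.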

Other observations

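On the X chromosome, 123 of 931 LCL regions were gained (13.2%) and 10 lost (1.07%), against 9.40% and 3.17% of all regions. Among the autosomes the gained share ran from 7.17% (chromosome 8) to 11% (chromosome 5), and the lost share from 1.62% (chromosome 7) to 4.41% (chromosome 1).

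Imprinted genes moved in both directions in RNA: of 27 tested, 5 rose and 3 fell in ID against D, and 6 rose and 2 fell in ID against I. Of all genes tested 4.26% rose and 6.76% fell in the first contrast and 4.04% and 4.45% in the second, and the shares of imprinted genes were 18.5% and 11.1%, then 22.2% and 7.41%. Of 22 pluripotency genes 2 rose (9.09%) and 5 fell (22.7%) in ID against D, and 1 rose and 0 fell in ID against I. Of 19 Hox genes tested 2 rose and 2 fell in ID against D (10.5% each). Of 18 cohesin genes 1 rose (5.56%) and 2 fell (11.1%). These lists too were chosen with earlier results of these data known, so the shares describe them and carry no test.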
